A study of Homo sapiens
Mus musculus with 2 samples.

Results

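Dividing non-secretory crypt progenitors are the epithelial cells of the colonic crypt that hold transcripts of mitosis genes without high levels of the products of goblet, deep crypt secretory or mature absorptive cells. They were taken from single-cell RNA-seq of the colonic epithelium of 1 wild-type (WT) C57Bl6 mouse that received no treatment, sequenced as 2 libraries called library 1 and library 2. Epithelium was freed with EDTA, digested by collagenase and DNase, enriched magnetically for viable cells, mixed with human K562 leukaemia cells and captured as single cells in droplets (inDrop), which give each cell a barcode. Counts are of unique molecular identifiers (UMIs, each marking 1 captured molecule) and levels are UMIs per 1000000 UMIs of the same barcodes (CPM). Members were selected on their own measured levels. A barcode was a member if it held at least 3000 UMIs, under 20000 CPM of the goblet gene Zg16, under 2500 CPM summed over the colonocyte genes Prdx6, Tgm3 and Ces2c, under 1500 CPM summed over the secretory genes Mptx1, Retnlb, Atoh1, Spdef, Klk1 and Tpsg1, and at least 1000 CPM summed over the 10 mitosis genes Top2a, Cdk1, Birc5, Ube2c, Ccna2, Ccnb2, Cdc20, Pbk, Nusap1 and Aurka. This gave 130 members of 2402 barcodes in all, 104 of 1738 in library 1 and 26 of 664 in library 2.

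In the colonic crypt, stem cells at the base divide and give rise to transit-amplifying cells, which divide several times more while they move up. Wnt signals from the surrounding stroma keep the lower crypt dividing, and Notch signals between neighbours hold cells back from the secretory fate, which the factor Atoh1 starts. Cells that stop dividing switch on cyclin-dependent kinase inhibitors and then the transporters and enzymes of the mature colonocyte. During a cycle, replication genes peak as DNA is copied, and genes of the spindle, the kinetochore and chromosome condensation peak later, in G2 and mitosis.

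Members were set against 2 classes cut from the same libraries. Non-dividing non-secretory barcodes passed the same limits with under 1000 CPM of the mitosis genes and under 500 CPM of 8 immune genes, 157 in library 1 and 71 in library 2. Dividing secretory barcodes had 1500 CPM or more of the 6 secretory genes and 1000 CPM or more of the mitosis genes, 36 in library 1 and 27 in library 2. A colonocyte gate (354 and 127 barcodes) and non-dividing secretory barcodes (228 and 97) served as further background. Members held 722241 UMIs in library 1 and 247164 in library 2, with a median of 6623 and 8565.5 UMIs per barcode, against 5946 and 6767 in non-dividing non-secretory and 6813 and 7204 in dividing secretory barcodes. The median share of mitochondrially encoded UMIs was 4.46% and 7.67% in members, 5.17% and 10.3% in non-dividing non-secretory and 3.60% and 6.38% in dividing secretory barcodes. No barcode of 1 library had the same counts as a barcode of the other.

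Among barcodes with at least 3000 UMIs, members made up 9.19% in library 1 (95% Clopper-Pearson interval 7.57% to 11.0%) and 5.94% in library 2 (3.91% to 8.58%). Members were 39.8% (33.9% to 46.1%) of both non-secretory classes together in library 1 and 26.8% (18.3% to 36.8%) in library 2. Of all dividing barcodes of both classes, 74.3% (66.2% to 81.3%) were non-secretory in library 1 and 49.1% (35.1% to 63.2%) in library 2, so that the balance between these dividing classes was not the same in both libraries of the animal. These intervals cover counting error only, and magnetic enrichment and capture may set such shares.

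The 10 mitosis genes chose the members, so their levels are a description. Top2a, the topoisomerase that untangles replicated chromosomes, had 623 and 421 CPM in members of libraries 1 and 2, against 43.1 and 26.8 CPM in non-dividing non-secretory barcodes. Ccnb2, a cyclin that drives entry into mitosis, had 246 and 267 CPM in members and 36.2 and 57.3 CPM in non-dividing ones. Ccna2 was the rule gene seen in most members of library 1, in 84.6% of them, and Ube2c, which directs destruction of cyclins, in most members of library 2, in 92.3%. The least often seen were Nusap1 in library 1 (46.2%) and Pbk in library 2 (42.3%). A member held a median of 7 of the 10 genes in either library, and at least 2, so that none was called on a single gene. The smallest mitosis sum of a member was 4 UMIs.

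**Figure D1:**
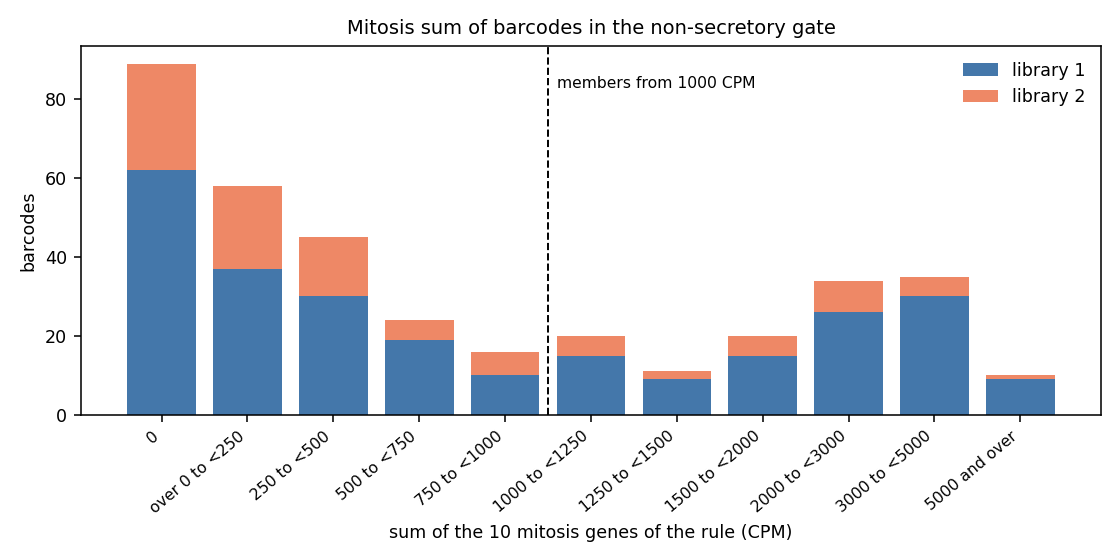
Number of barcodes in the non-secretory gate (vertical axis) by the summed level of the 10 mitosis genes in CPM (horizontal axis, bins of unequal width), stacked by library, with a dashed line at 1000 CPM. From 750 to just under 1000 CPM there were 16 barcodes and from 1000 to just under 1250 CPM 20, so the line does not fall in an empty gap.

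The threshold cut through a continuous range. The 5 members closest above it had 1006 to 1034 CPM from 5 to 11 UMIs, and the 5 barcodes closest below it had 964 to 984 CPM from 3 to 10 UMIs. The median member had 182 CPM of the secretory sum and the highest 1493 CPM, and 7 members lay within 20% of that limit. For the colonocyte sum the median was 310 CPM and the highest value 1628 CPM.

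The label was then compared with marker genes. Of the 4 markers given for these cells, Top2a and Ccnb2 belong to the rule and Stmn1 and Cdca7 do not. Stmn1, stathmin, destabilises microtubules and is abundant in proliferating cells. It had 503 and 336 CPM in members against 196 and 163 CPM in non-dividing non-secretory barcodes. The log2 fold change was 1.14 ± 0.18, where ± gives the standard error (edgeR adjusted p = 8.5e-08). Members were chosen on mitosis genes, so a difference in a gene that varies with them follows from that choice. After thinning every barcode to 3000 UMIs, Stmn1 was detected in 69.2% and 42.3% of members and 75% and 59.3% of dividing secretory barcodes. In non-dividing non-secretory barcodes the shares were 32.5% and 32.4%. Stmn1 thus did not mark members apart from dividing secretory barcodes. Cdca7, a Myc and E2F target linked to DNA methylation, had 147 and 109 CPM in members against 141 and 84.1 CPM in non-dividing ones (log2 fold change 0.07 ± 0.24, edgeR adjusted p = 0.96), so it was not called. Against dividing secretory barcodes (96.0 and 55.2 CPM) its difference was 0.75 ± 0.31 (edgeR adjusted p = 0.30), and the colonocyte gate held 11.6 and 15.7 CPM. Both libraries thus had more Cdca7 in the non-secretory classes than in that gate, whether dividing or not.

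Markers of cells outside the epithelium were low in members apart from single barcodes and the myeloid marker Cd14. The 7 epithelial markers summed to 4820 and 5648 CPM, against 7739 and 8418 CPM in non-dividing non-secretory barcodes. Goblet markers were not low, at 6044 and 6308 CPM against 18555 and 20469 CPM in dividing secretory barcodes. Deep crypt secretory markers summed to 810 and 821 CPM against 7855 and 10877 CPM there. Lymphocyte markers summed to 339 CPM in library 1 and 64.7 CPM in library 2, where 219 of the 245 UMIs of library 1 came from 1 member, without which they summed to 36.2 CPM. The 7 B and plasma cell markers summed to 15.2 and 20.2 CPM in members, with Jchain and Mzb1 at 0, against 1131 and 16.1 CPM in non-dividing non-secretory barcodes. The 13 red cell markers summed to 27.7 and 36.4 CPM in members, with Hba-a1 and Hba-a2 at 0, against 2030 and 28.6 CPM, of which a single non-dividing barcode held 2040 of 2073 UMIs. Of 8 myeloid markers Lyz2, Csf1r, C1qb and Tyrobp were at 0 in members. The list summed to 177 and 206 CPM in members and 187 and 141 CPM in non-dividing ones. With every barcode thinned to equal depth, Cd14 was detected in 34.6% and 30.8% of members. It was detected in 36.9% and 28.2% of non-dividing non-secretory, 44.4% and 37.0% of dividing secretory and 29.4% and 20.5% of colonocyte gate barcodes. Of the other myeloid markers only Adgre1 was detected in thinned members, in 1.92% and 0%. Enteroendocrine markers summed to 83.1 and 16.2 CPM against 113 and 138 CPM. Across all classes 5 barcodes held 50 or more UMIs of lymphocyte, plasma and red cell markers, 1 member and 4 non-dividing non-secretory ones, all of library 1.

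The word non-secretory fitted most members but not all. Over 28 secretory products and factors that the rule did not use, among them Muc2, Tff3, Agr2 and Spink4, the median member had 4157 CPM in library 1 and 2744 CPM in library 2, and the highest 54389 and 30147 CPM. At or over 15000 CPM, a line drawn after these values were seen, lay 21 of 104 members of library 1 (20.2%) and 6 of 26 of library 2 (23.1%), against 15.3% and 9.86% of non-dividing non-secretory and 91.7% and 92.6% of dividing secretory barcodes. Since this sum chose the 27 high members, the levels of its own genes in them follow from that choice and are a description. They held 8244 and 8338 CPM of the gel-forming mucin gene Muc2, against 495 and 186 CPM in the other members and 9260 and 9026 CPM in dividing secretory barcodes. Reg4, a lectin gene of deep crypt secretory cells and also 1 of the 28, had 2653 and 2571 CPM in high members, 88.7 and 74.5 CPM in the other members and 3881 and 4285 CPM in dividing secretory barcodes. All 27 were under the limit on the 6 secretory genes of the rule.

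Genes outside that list differed in direction within members. The goblet gene Zg16 went with the list in sum, at 2401 and 4736 CPM in high members against 828 and 548 CPM in the others. Single members reached 18001.5 CPM of Zg16 in library 1 and 18329.3 CPM in library 2, and 3 members lay within 20% of its limit. A few barcodes can thus hold much of these Zg16 sums. Top2a was split between libraries, at 544 and 761 CPM against 643 and 314 CPM. Dmbt1, Aqp4 and Mgst1 ran the other way. Dmbt1, a secreted scavenger receptor protein of the gut lining, had 1782 and 1742 CPM in high members and 5709 and 5254 CPM in the other members, against 1490 and 1436 CPM in dividing secretory barcodes. Aqp4, a water channel, had 252 and 389 CPM in high members against 953 and 697 CPM in the others. Mgst1, a membrane glutathione transferase, had 129 and 135 CPM against 422 and 473 CPM. These are sums over the 21 and 6 high members and over the 83 and 20 other members, not levels of each barcode. Results below are for all 130. After thinning every barcode to 3000 UMIs, Muc2 was detected in 69.2% and 61.5% of members and in 60.2% and 55.1% of barcodes of the colonocyte gate, where it is not a known product, so that its detection in a single barcode is not read as expression.

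UMIs were summed by class and library and tested with edgeR's quasi-likelihood test, the library as a block, over 16402 genes with Benjamini-Hochberg adjustment (called means adjusted p under 0.05). With the library as a block, the p-values cover only how differences between the 6 classes vary between these 2 libraries of a single mouse. That spread may be technical, and with 5 residual degrees of freedom the smallest p-values rest on dispersion pooled over genes. The genes tested were read from the same barcodes that the rule selected, so genes that vary with the rule genes differ by that choice. The 20 rule genes were not tested.

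Against non-dividing non-secretory barcodes, 328 genes were higher in members, 2.00% of genes tested, and 467 were lower, 2.85%, or 4.85% in all. The median log2 fold change of all genes was -0.04. All 795 had the same sign in library 1 alone, and 783 in library 2 alone. The calls were made from these same 2 libraries, so a shared sign largely follows from the call. In 3 of the higher and 24 of the lower genes a single barcode held at least 50% of the UMIs of the higher class.

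Of 41 tested mitosis genes outside the rule, 40 were higher and none lower, with a median log2 fold change of 2.63, which follows from the choice of members. Plk1, the polo-like kinase that starts mitotic entry and bipolar spindle assembly, had 192 and 190.2 CPM in members against 7.84 and 3.58 CPM in non-dividing barcodes, a log2 fold change of 4.78 ± 0.38. Ccnb1, the cyclin partner of Cdk1, had 149.5 and 113 CPM against 11.8 and 16.1 CPM (3.22 ± 0.35). Kif11, the kinesin that pushes spindle poles apart, had 99.7 and 97.1 CPM against 10.8 and 8.95 CPM (3.16 ± 0.40). In single barcodes thinned to 3000 UMIs Plk1 was detected in 34.6% and 30.8% of members against 0.637% and 0% of non-dividing ones. Ckap2, Spc25, Ckap2l, Kif20a, Ect2, Tpx2 and Tacc3, with roles in spindle, kinetochore and cell cleavage, completed the 10 largest, from 3.04 to 4.52 on the log2 scale.

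Replication genes were higher by less. Of 36 tested, 10 were higher and 1 lower, with a median log2 fold change of 0.80. Tk1, thymidine kinase, had 161 and 113 CPM in members against 24.5 and 28.6 CPM (2.34 ± 0.31), the largest change in the list. Pcna, the sliding clamp of DNA polymerase, had 300.4 and 223 CPM against 164 and 107 CPM (0.82 ± 0.20), and the ribonucleotide reductase subunit Rrm2 90.0 and 89.0 CPM against 30.4 and 46.5 CPM (1.18 ± 0.32). The helicase subunit Mcm5 had 161 and 109 CPM against 65.6 and 51.9 CPM (1.11 ± 0.26), whereas Mcm2 of the same helicase had 78.9 and 109 CPM against 131 and 147 CPM and was lower (-0.72 ± 0.23, edgeR adjusted p = 0.039). The other higher genes were Mcm7, Cdc45, Gins2, Rrm1, Tyms and Fen1. Mcm2 had 116 and 155 CPM in the colonocyte gate, where Mcm5 had 7.05 and 3.92 CPM, so its counts did not follow those of its partners. How strand and overlapping genes were handled is not given in the sources used here.

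Of 23 tested chromatin and tubulin genes, 19 were higher in members and none lower, with a median of 1.02. Hmgb2, a DNA-bending protein of dividing cells, had 1752 and 1355 CPM against 239 and 217 CPM (2.66 ± 0.15). Tuba1b, an alpha-tubulin, had 1054 and 821 CPM against 231 and 183 CPM (2.07 ± 0.16), and the beta-tubulin Tubb5 1565 and 931 CPM against 452 and 279 CPM (1.66 ± 0.14). The histone variant H2afx had 192 and 113 CPM against 41.1 and 30.4 CPM (2.03 ± 0.27). After thinning, Hmgb2 was detected in 93.3% and 96.2% of members against 33.8% and 33.8% of non-dividing barcodes, so that single barcodes of the classes overlapped. Tubulin genes are close copies, so counts could be shared among them.

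Genes of cycle exit were divided. Of 19 tested, 3 were higher and 4 lower, with a median of 0.00. Among inhibitors of cyclin-dependent kinases, Cdkn2c had 41.5 and 16.2 CPM in members against 7.84 and 1.79 CPM (2.42 ± 0.55), Cdkn2d 62.3 and 52.6 CPM against 12.7 and 19.7 CPM (1.86 ± 0.39) and Cdkn1b 87.2 and 142 CPM against 46.0 and 35.8 CPM (1.21 ± 0.28). Cdkn1a, the p53-responsive inhibitor p21, had 81.7 and 113 CPM against 229 and 429.6 CPM (-1.90 ± 0.20), Cdkn2b was lower by -2.10 ± 0.62, and the antiproliferative factor Btg2 and the differentiation factor Klf4 were lower by -1.05 ± 0.31 and -1.03 ± 0.16. The inhibitors thus moved in both directions. The D cyclins, which start the cycle in response to growth signals, were not called, with Ccnd1 at 288 and 198 CPM against 224 and 170 CPM (0.22 ± 0.19) and Ccnd2 at 688 and 490 CPM against 752 and 439 CPM (-0.11 ± 0.15). Apart from Cdkn1a, none of 12 p53 targets was called, and the 12 had a median of -0.09.

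Stem cell and Wnt target genes differed little between dividing and non-dividing barcodes. Of 27 tested, none was higher and Aqp4 alone was lower, with a median of 0.08. Axin2, a feedback inhibitor and direct Wnt target, had 55.4 and 52.6 CPM in members against 36.2 and 23.3 CPM (0.70 ± 0.36, edgeR adjusted p = 0.38). Cd44, a hyaluronan receptor and Wnt target, had 186 and 109 CPM against 104 and 62.6 CPM (0.73 ± 0.24, edgeR adjusted p = 0.057), and was called under some of the alternative settings. Myc, a growth-promoting transcription factor gene downstream of Wnt, had 109 and 48.6 CPM against 84.2 and 35.8 CPM (0.33 ± 0.28). Both libraries had more of these 3 genes in members, by less than the test could call.

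Lgr5, the receptor that marks crypt base stem cells, had 18.0 and 20.2 CPM in members against 22.5 and 7.16 CPM in non-dividing barcodes (0.06 ± 0.51, edgeR adjusted p = 0.99), and the libraries differed in direction. After thinning to 3000 UMIs it was detected in 3.85% and 7.69% of members and in 1.13% and 3.94% of barcodes of the colonocyte gate, which should lack it. At this depth the share of members with Lgr5 cannot be read as the share of stem cells. Median depth before thinning was 6428 and 7841 UMIs in that gate.

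**Figure D2:**
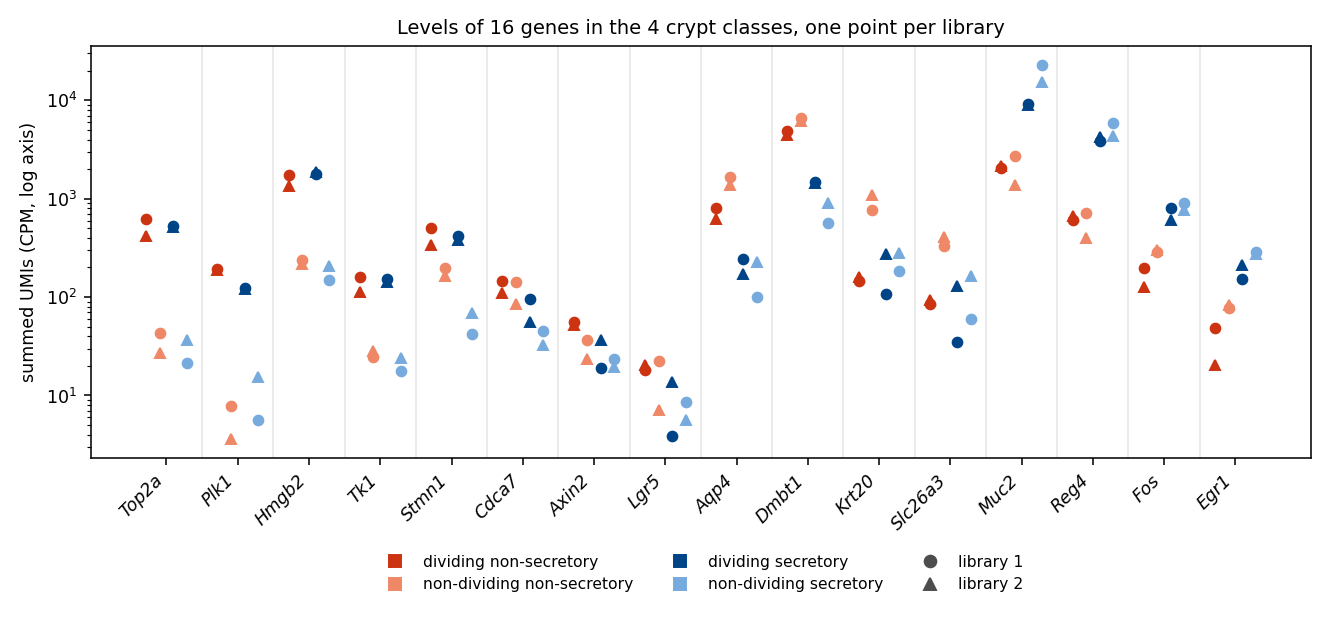
Level in CPM on a log axis (vertical) of 16 genes (horizontal) in dividing non-secretory, non-dividing non-secretory, dividing secretory and non-dividing secretory barcodes, left to right for each gene, with circles for library 1 and triangles for library 2. Plk1 and Hmgb2 go with division in both gates, Dmbt1 and Aqp4 with the non-secretory gate, and Krt20 is highest in non-dividing non-secretory barcodes.

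No Notch pathway gene of 13 tested was called against non-dividing non-secretory barcodes (median 0.14). Genes of growth had few calls. In ribosome biogenesis Nhp2 and Gar1, both of the complex that modifies ribosomal RNA, were higher, and no gene was lower, of 24 tested (median 0.44). In nucleotide, serine and one-carbon synthesis 3 of 19 were higher and none lower (median 0.42), namely Cad, which starts pyrimidine synthesis, at 76.2 and 64.7 CPM against 33.3 and 23.3 CPM (1.19 ± 0.34), Impdh2 of guanine nucleotide synthesis (0.91 ± 0.23) and Atic of purine synthesis (0.81 ± 0.25). None of 80 tested cytosolic ribosomal protein genes was called (median 0.04), and none of 15 cholesterol synthesis genes (median -0.07). Of 13 mitochondrially encoded genes 11 were lower (median -0.60), beside mitochondrial shares of up to 16.6% and 25.2% in members and 40.3% and 64.8% in non-dividing barcodes of libraries 1 and 2. Without barcodes of 20% or more mitochondrial UMIs, 1 member and 28 non-dividing ones, mt-Co3 stood at -0.32 in place of -0.77 and mt-Nd4 at -0.30 in place of -0.64, and neither was called.

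Absorptive products were lower in members. Of 28 tested, 22 were lower and none higher, with a median of -1.76. Krt20, a keratin of upper crypt and surface cells, had 145 and 162 CPM in members against 774 and 1092 CPM (-2.70 ± 0.16). Slc26a3, the chloride-bicarbonate exchanger, had 84.5 and 93.1 CPM against 330.1 and 405 CPM (-2.13 ± 0.20), and Car4, a carbonic anhydrase of the surface membrane, 24.9 and 16.2 CPM against 94.0 and 306 CPM (-3.03 ± 0.29). Guca2a, which encodes guanylin, had 168 and 186 CPM against 595 and 551 CPM (-1.85 ± 0.16). The library sums of all 4 were lower in members of both libraries, which the call of these genes favours. Single barcodes overlapped, with Krt20 detected after thinning in 17.3% and 15.4% of members against 39.5% and 49.3% of non-dividing barcodes. The colonocyte gate held more of each still, with Krt20 at 5619 and 4089 CPM.

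Of 20 absorptive and gut identity factors, 3 were lower in members and none higher (median -0.38). These were the bile acid receptor gene Nr1h4 (-1.74 ± 0.34) and the BMP target genes Id1, with 208 and 231 CPM against 383 and 564 CPM (-1.24 ± 0.17), and Id3, with 118 and 142 CPM against 275 and 259.5 CPM (-1.22 ± 0.19). The intestinal identity factor Cdx2 was not called, at 328 and 267 CPM against 312 and 308 CPM (-0.17 ± 0.17). BMP signals are strongest in the upper crypt and low at its base.

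The remaining genes with the largest decreases were mostly scarce in members. Areg, an EGF receptor ligand, had 2.77 and 4.05 CPM in members against 26.4 and 50.1 CPM (-3.54 ± 0.63), and Ido1, which breaks down tryptophan, 1.38 and 4.05 CPM against 24.5 and 39.4 CPM (-3.79 ± 0.69). Pyy, the hormone peptide YY of enteroendocrine cells, had 1 UMI in members, and 1 non-dividing barcode held 50% of its UMIs there. Ifit1bl1 had 31.8 and 28.3 CPM against 169 and 403 CPM (-3.20 ± 0.25). Its close copy Ifit1bl2, Ly6d, Clca4b, Sptssb and Ltk were lower by -3.37 to -2.92, and of these Ly6d and Clca4b had 265 and 204 CPM and 685 and 1023 CPM in the colonocyte gate.

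Genes that respond to tissue dissociation also differed. Of 19 tested, 6 were lower in members and 1, the chaperone gene Hsp90aa1, was higher (median -0.48). Fos had 199 and 125 CPM against 288 and 302 CPM (-0.90 ± 0.17) and Egr1 48.5 and 20.2 CPM against 77.4 and 82.3 CPM (-1.07 ± 0.29). Fosb, Jun, Junb and Klf6 were the others lower. Secretory products and factors outside the rule had 1 higher, the endoderm factor gene Foxa2, and 1 lower, the enteroendocrine factor gene Neurog3, of 28 tested (median 0.09). A single barcode held 15 of the 26 Neurog3 UMIs of the non-dividing class. Muc2 had 2073 and 2136 CPM against 2722 and 1364 CPM (-0.04 ± 0.11).

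**Figure D3:**
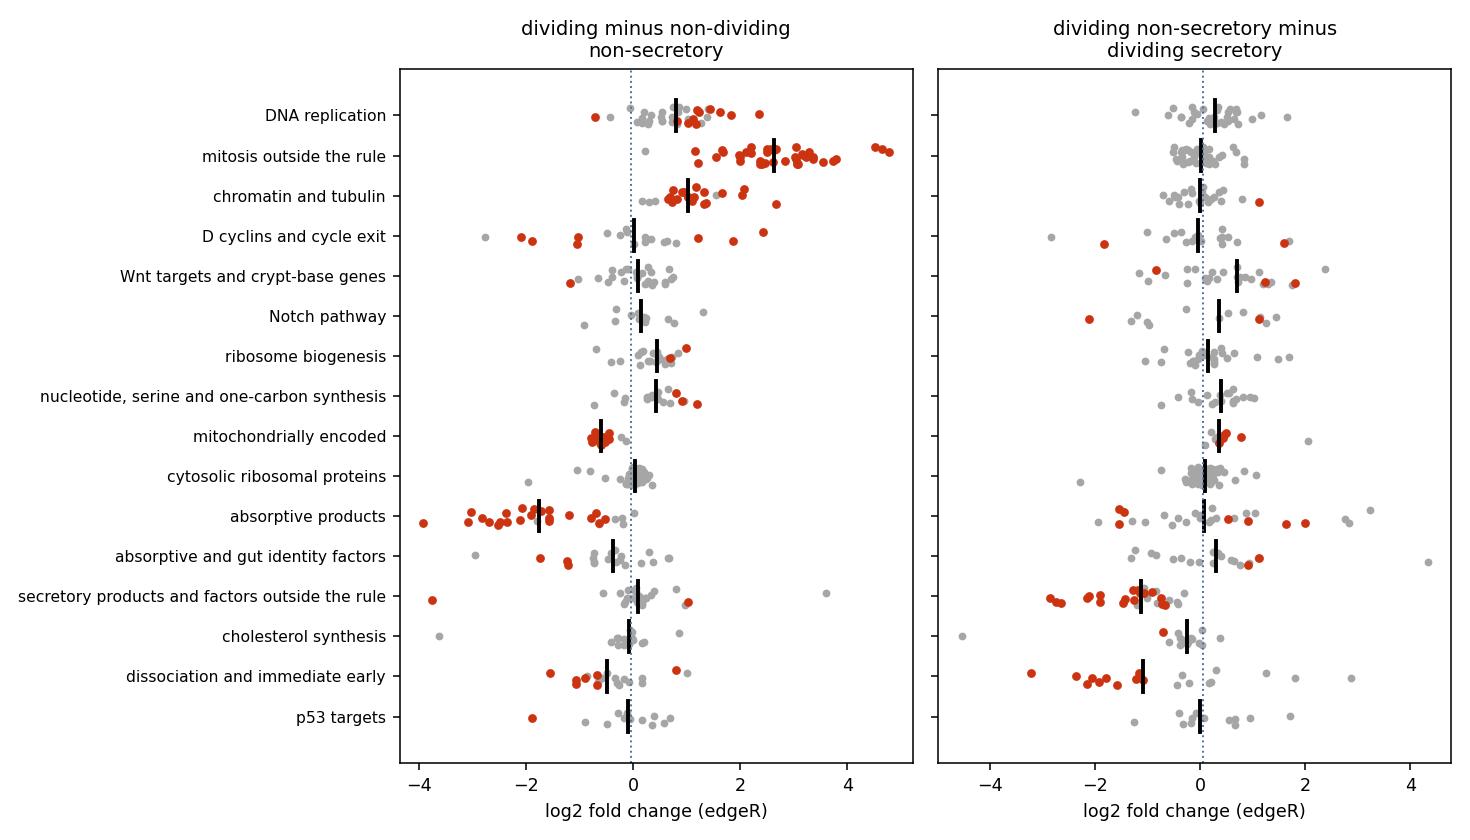
Log2 fold change (horizontal axis) of each tested gene of 16 gene lists (vertical axis), for members against non-dividing non-secretory barcodes (left) and against dividing secretory barcodes (right). Red points were called, black bars are list medians and the dotted line is the median of all genes. Mitosis and chromatin genes lie right of 0 in the left panel and around 0 in the right panel, where all 28 secretory genes and 13 of 19 dissociation and immediate early genes lie left of 0.

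Against dividing secretory barcodes, 98 genes were higher in members, 0.597% of genes tested, and 225 lower, 1.37%, or 1.97% in all, with a median of 0.05. Without the 27 members high in secretory products 482 genes were called, 143 higher and 339 lower, an increase that leaving out the members most like the other class on that list favours by construction. None of the mitosis and replication genes was called in this comparison. Mitosis genes outside the rule had a median of 0.03 and Plk1 192 and 190.2 CPM in members against 123 and 119.7 CPM (0.67 ± 0.29, edgeR adjusted p = 0.33). Replication genes had a median of 0.28. At a log2 fold change of 1, simulated data of this comparison recovered 8 of 105 changed genes. These were drawn at random from genes with at least 20 UMIs and given a dispersion above the fitted common value of 0.0105. Differences of that size would mostly go uncalled in such genes. In the real comparison 237 of 323 called genes changed by at least 1 and the others by less. The simulation thus does not give the size that was missed for mitosis and replication genes.

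Among the 10 genes most lower in members, the gate fixed the direction for those that vary with its 6 secretory genes. Sval1 had 92.8 and 121 CPM in members against 841 and 1335 CPM (-3.35 ± 0.17), and Best2, a bestrophin anion channel of goblet cells, 13.8 and 20.2 CPM against 161 and 147 CPM (-3.35 ± 0.37). Reg4 had 611 and 672 CPM against 3881 and 4285 CPM (-2.73 ± 0.14) and the chemokine gene Ccl6 252 and 396 CPM against 1950.3 and 1878 CPM (-2.67 ± 0.16). Fosb, described with the immediate early genes, was lower by -3.22 ± 0.38. Cma1, a protease gene known from mast cells, Nov, a secreted matrix-associated protein gene, the helicase gene Recql5, St6gal1, a sialyltransferase gene, and Gm1123 were lower by -3.27 to -2.68. Of the 28 secretory products and factors outside the rule, 18 were lower and none higher (median -1.12). Of the Muc2 UMIs of members, the 27 high members held 1212 of 1497 in library 1 and 493 of 528 in library 2.

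The largest increases over dividing secretory barcodes were of another kind. Reg3b and Reg3g, neighbouring genes of antimicrobial lectins with similar sequence, had 896 and 413 CPM (Reg3b) and 766 and 312 CPM (Reg3g) in members against 138 and 166 CPM and 57.6 and 166 CPM (2.20 ± 0.23 and 2.32 ± 0.25). One barcode held 51% of the Reg3g UMIs of dividing secretory barcodes and 17.6% of those of members. Apol10a, of the apolipoprotein L family, had 152 and 223 CPM against 34.6 and 27.6 CPM (2.47 ± 0.34), and Sult1b1, a sulfotransferase of detoxification, 56.8 and 113 CPM against 23.0 and 4.60 CPM (2.33 ± 0.48). Fabp2, the intestinal fatty acid binding protein, had 152 and 105 CPM against 30.7 and 36.8 CPM (2.00 ± 0.36). The fatty acid elongation gene Hacd1, the amino acid transporter gene Slc6a14, the gasdermin gene Gsdmc4 and the hydroxyacid oxidase gene Hao2 were higher by 1.82 to 2.22. Gsdmc4 belongs to a cluster of close copies.

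Of these genes, Apol10a, Sult1b1, Reg3b, Fabp2, Slc6a14, Gsdmc4 and Hao2 were called lower in members than in non-dividing non-secretory barcodes. Gsdmc4, for instance, had 95.5 and 121 CPM in members against 446 and 456 CPM there. The 2 comparisons share the members' own sums. Among absorptive products, members were higher than dividing secretory barcodes in 4, among them Fabp2, Lgals3 and Ceacam1, and lower in Car4, Guca2a and Guca2b, of 28 tested (median 0.08). Lgals3, galectin 3, had 404 and 728 CPM against 238 and 336 CPM (0.91 ± 0.17). Guca2a had 168 and 186 CPM against 534 and 460.3 CPM (-1.54 ± 0.18). The call of Car4 rests on library 2, with 24.9 and 16.2 CPM in members against 11.5 and 129 CPM (log2 differences of 1.01 in library 1 and -2.86 in library 2).

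Of 27 tested Wnt targets and crypt-base genes, 2 were higher in members than in dividing secretory barcodes and 1 was lower, with a median of 0.70, 20 positive and 7 negative. The list summed to 3259 and 2545 CPM in members against 2211 and 2200.2 CPM, sums of which Aqp4 is a large part. The water channel gene Aqp4 had 810.0 and 623 CPM against 242 and 170.3 CPM (1.80 ± 0.19) and the potassium channel subunit gene Kcne3 245 and 251 CPM against 115 and 92.1 CPM (1.24 ± 0.26). Prom1, a membrane protein gene of progenitors, was lower (-0.83 ± 0.24). Lgr5, with 18.0 and 20.2 CPM against 3.84 and 13.8 CPM, was not called (1.13 ± 0.80, edgeR adjusted p = 0.73).

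In the Notch pathway, 1 gene of 13 was higher and 1 lower (median 0.37). Hes1, the repressor that Notch induces and that blocks Atoh1, had 144 and 113 CPM in members against 80.6 and 36.8 CPM in dividing secretory barcodes (1.12 ± 0.32, edgeR adjusted p = 0.034). Dll1, a ligand that secretory precursors present, had 6.92 and 16.2 CPM against 46.1 and 36.8 CPM (-2.11 ± 0.61, edgeR adjusted p = 0.034). These 2 genes thus differed in opposite directions, while Dll4 (34.6 and 56.6 CPM against 69.1 and 110.5 CPM) and Notch1 (51.2 and 32.4 CPM against 11.5 and 23.0 CPM) were not called. The classes were cut on a sum that holds Atoh1, and Dll1 is also in the list of secretory products and factors. The directions of genes that vary with Atoh1 follow from that choice. Besides Hes1, Cdx2 was higher among 20 identity factors, with 328 and 267 CPM against 188 and 129 CPM (0.91 ± 0.22).

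Among cycle genes members had more Cdk6, a D cyclin partner, with 87.2 and 72.8 CPM against 19.2 and 36.8 CPM (1.60 ± 0.44), and less Btg2 (-1.82 ± 0.33), with Ccnd2 not called (-0.37 ± 0.16). Hmgn1, a nucleosome binding protein gene, had 269 and 210.4 CPM against 119 and 101 CPM (1.12 ± 0.26). In turn 5 of 13 mitochondrially encoded genes were higher and none lower (median 0.36). In cholesterol synthesis Hmgcs1 was lower (-0.71 ± 0.18) and no gene of 15 was higher.

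Immediate early genes, which cells switch on within minutes of a stimulus, had the most lower genes of the 16 lists after secretory products. Of 19 dissociation and immediate early genes, 10 were lower in members and none higher (median -1.09). Fos had 199 and 125 CPM in members against 802 and 608 CPM in dividing secretory barcodes (-2.05 ± 0.18), Fosb 19.4 and 8.09 CPM against 165 and 124 CPM (-3.22 ± 0.38) and Jun 227 and 154 CPM against 653 and 525 CPM (-1.58 ± 0.18). The phosphatase gene Dusp1 had 24.9 and 36.4 CPM against 127 and 179.5 CPM (-2.36 ± 0.33). Egr1, Junb, Atf3, Ier2, Zfp36 and Nr4a1 were the others. Non-dividing secretory barcodes held 899 and 766 CPM of Fos, so both secretory classes lay above both non-secretory ones. Dissociation can induce these genes, and its part in the difference was not tested.

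The difference between dividing and non-dividing barcodes was itself compared between the non-secretory and the secretory gate. It was unequal for 49 genes, 0.299% of those tested, with a more positive difference in the non-secretory gate for 17 genes, 0.104%, and a more negative one for 32, 0.195% (median of all genes 0.09). With the DESeq2 Wald test 9 genes were called, and without the library block 0 by edgeR, where 656 had an unadjusted p under 0.05. Of the 32 more negative genes 5 were among the 28 absorptive products tested, and of the 17 more positive 6 were among the 28 secretory products tested.

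Krt20 had 145 and 162 CPM in members and 774 and 1092 CPM in non-dividing non-secretory barcodes, against 108 and 272 CPM in dividing and 183 and 280.2 CPM in non-dividing secretory barcodes, a difference of differences of -2.23 ± 0.27. Dmbt1 had 4910 and 4414 CPM in members and 6578 and 6232 CPM in non-dividing non-secretory barcodes, against 1490 and 1436 CPM in dividing and 565 and 897 CPM in non-dividing secretory barcodes (-1.42 ± 0.17). It was thus lower in dividing than in non-dividing barcodes of the non-secretory gate and the reverse in the secretory gate, in both libraries. The membrane mucin gene Muc3 had the same pattern (-1.68 ± 0.18), with 944 and 893 CPM in dividing and 372 and 639 CPM in non-dividing secretory barcodes. For Aqp4 (-1.44 ± 0.25) the libraries differed in the secretory gate, with 242 and 170.3 CPM in dividing and 99.6 and 227 CPM in non-dividing barcodes. Slc26a3, 1810065E05Rik, Mgat4c and Lad1 were among the other 10 most negative. Mgst1 had 363 and 392 CPM in members and 364 and 320.4 CPM in non-dividing non-secretory barcodes, against 99.8 and 161 CPM in dividing and 40.5 and 37.8 CPM in non-dividing secretory barcodes (-1.52 ± 0.32). Stmn1 was higher in dividing barcodes of both gates, by less in the non-secretory one (-1.63 ± 0.28). Non-dividing non-secretory barcodes held 196 and 163 CPM of it, against 42.0 and 68.6 CPM in non-dividing secretory ones.

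Muc2 had 2073 and 2136 CPM in members and 2722 and 1364 CPM in non-dividing non-secretory barcodes, against 9260 and 9026 CPM in dividing and 23046 and 15368 CPM in non-dividing secretory barcodes (1.17 ± 0.15). Tff3, a trefoil peptide gene, and Agr2, a disulfide isomerase gene of mucin folding, were called likewise (0.97 ± 0.18 and 0.95 ± 0.17). Muc2 was thus lower in dividing than in non-dividing secretory barcodes of both libraries, while among non-secretory barcodes the libraries differed in direction. Without the 27 high members 31 genes were called, 1 with a more positive difference, and Muc2, Agr2 and Tff3 stood at -1.41, -0.54 and -0.036. These 3 belong to the list by which members were left out, and the 24 and 7 non-dividing non-secretory barcodes as high in it were kept, so a fall of these genes follows from the construction. Cgref1, Srpk3, B3gnt5, Rep15, Fcgbp, Clca1 and Krtcap2 completed the 10 most positive.

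**Figure D4:**
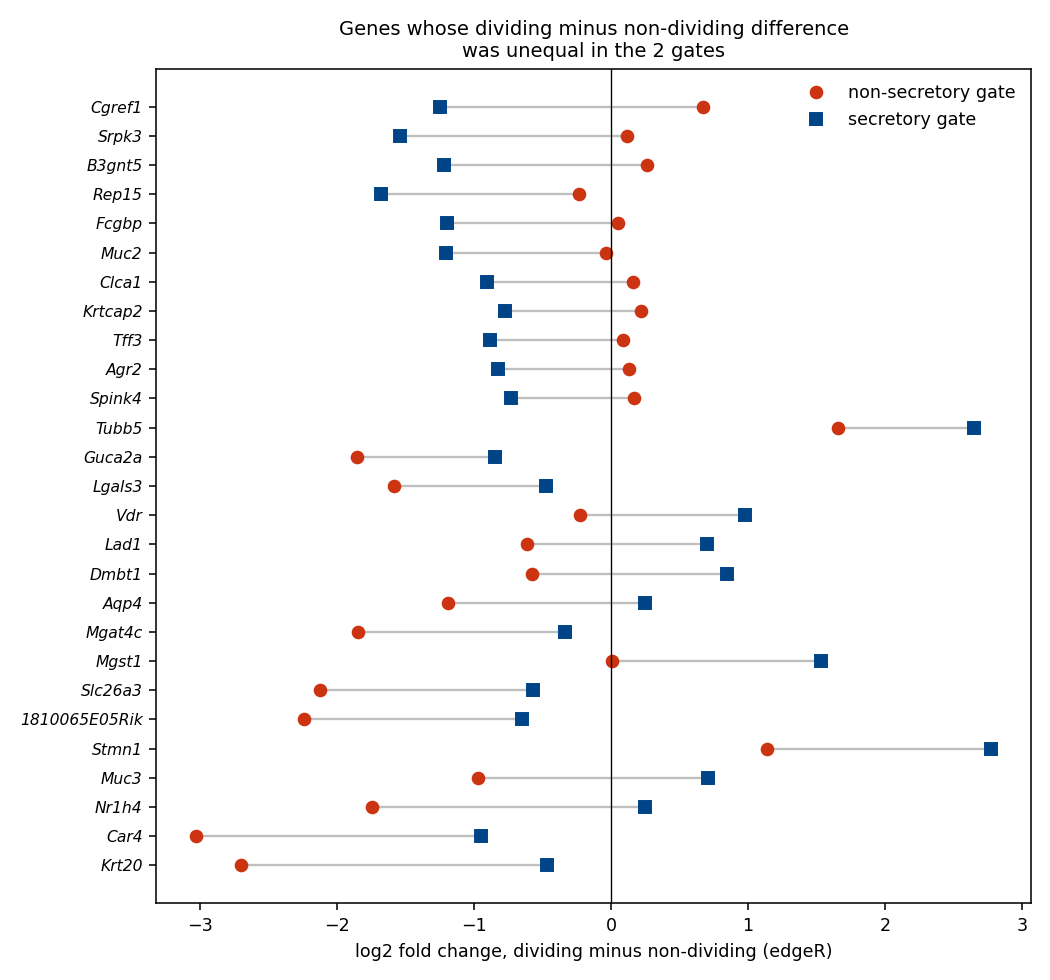
Log2 fold change between dividing and non-dividing barcodes (horizontal axis) in the non-secretory gate (red circles) and in the secretory gate (blue squares) for 27 genes (vertical axis) in which these were called unequal. Krt20 and Car4 are lowest in the non-secretory gate, and for Muc2, Tff3 and Agr2 the circle is near 0 and the square left of it.

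Members varied among themselves in replication. After thinning each to 3000 UMIs, the 36 replication genes summed to a median of 5 UMIs in library 1 (lowest 0, highest 28) and 6 in library 2 (1 to 20). In 26 of 104 members of library 1 and 6 of 26 of library 2 the sum reached 10 UMIs, and in 46 and 10 it was under 5. The replication sum had no clear relation to the rule's mitosis sum (Pearson r of -0.08 over 104 barcodes and 0.03 over 26), while for mitosis genes outside the rule r was 0.75 and 0.35. By the counts above, members with and without many replication transcripts both passed the mitosis threshold. These correlations are over barcodes that share library and depth and have no p-value. The rule also chose the members on the mitosis sum, which cuts off its low range and can shape correlations with it.

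**Figure D5:**
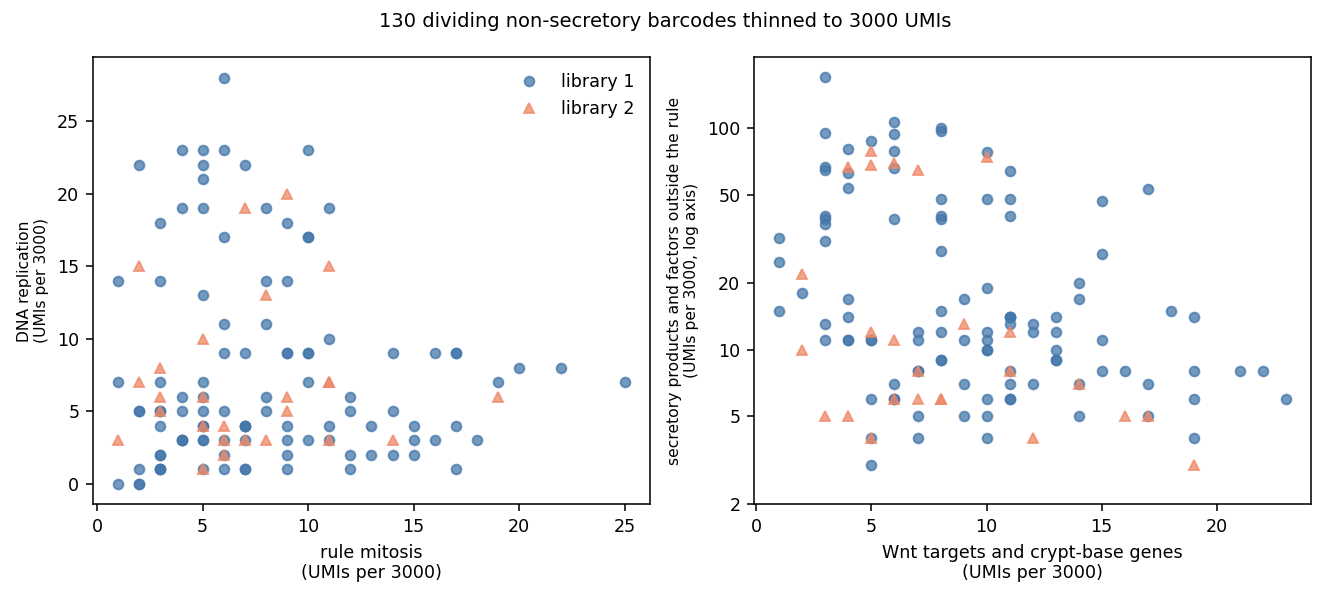
Each point is 1 of the 130 members thinned to 3000 UMIs, circles for library 1 and triangles for library 2. Left, replication UMIs (vertical) against UMIs of the rule's mitosis genes (horizontal). Right, UMIs of secretory products and factors outside the rule (vertical, log axis) against those of Wnt targets and crypt-base genes (horizontal). High replication sums occur at low and middle mitosis sums, and points above 50 secretory UMIs lie mostly at low Wnt target sums.

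Wnt targets and crypt-base genes summed to a median of 9 UMIs (1 to 23) in members of library 1 and 7 (2 to 19) in library 2, against 6 and 6 UMIs in dividing secretory barcodes. Their correlation with secretory products over members was weak and negative (r of -0.34 and -0.28). The medians and r include Aqp4, which was lower in members high in secretory products, and were not repeated without it. Absorptive products had a median of 8 and 9 UMIs and a highest value of 63 and 53 UMIs, against medians of 14 and 19 in non-dividing non-secretory barcodes. The highest values in non-dividing barcodes were 103 and 136 UMIs, and the classes overlapped in single barcodes.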

How the data were processed

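The authors deposited whole-number UMI counts per gene and barcode for each library, without normalization, for 25504 genes. Per the submitters' processing notes the builds were GRCh38 and GRCm38. No aligner, annotation, counting strand or barcode filter is given in the sources used here. K562 barcodes were not analysed here. The members and gene lists were chosen with earlier results of these data known.

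Counts were summed over 6 classes in 2 libraries, 12 sums in all, and genes with at least 20 UMIs were tested with edgeR 4.0.16 in R 4.3.3 (TMM, library as block, Benjamini-Hochberg adjustment). All classes come from the same libraries, so the block pairs them by construction. Rule genes count in library sizes. In simulated data of members against non-dividing barcodes, 12 of 105 genes changed by 1 and 41 of 95 changed by 2 on the log2 scale were recovered, with 4 false calls. Doublets were kept. A score from simulated pairs marks 5% of barcodes in an alternative. It held 3 members. Named genes are the 10 largest called changes in each direction with at least 20 UMIs in each library of the higher class, the rule genes, and up to 6 members of each list. DESeq2 1.42.0 was an alternative. Python 3.11.15 was used. Some genes that meet the rule for named genes are not reported here.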

Additional observations from a re-analysis of the deposited data

Results flagged for a closer look

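The genes below differed in how dividing and non-dividing barcodes compare in the non-secretory and the secretory gate, by the edgeR test of that difference itself. Values are differences of log2 fold changes, non-secretory minus secretory, in 2 libraries of 1 animal. This test called 49 genes in all, against 9 by the DESeq2 Wald test and 0 by edgeR without the library block (656 at unadjusted p under 0.05). No explanation was tested.

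Negative values were found for the colonocyte products Krt20 (-2.23), Car4 (-2.08), Slc26a3 (-1.56), Guca2a (-1.01) and Lgals3 (-1.11), and Car4 had 1.11 in library 1 and -4.02 in library 2. The receptor genes Nr1h4 (-1.99) and Vdr (-1.20) had negative values too. Muc3 (-1.68), Aqp4 (-1.44), Dmbt1 (-1.42), Mgst1 (-1.52), Mgat4c (-1.51), 1810065E05Rik (-1.59) and Lad1 (-1.32) were likewise negative. Stmn1 (-1.63) and Tubb5 (-0.99) were higher with division in both gates, by less in the non-secretory one.

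Positive values were found for the goblet cell genes Muc2 (1.17), Fcgbp (1.24), Clca1 (1.06), Tff3 (0.97), Agr2 (0.95) and Spink4 (0.90), and for Cgref1 (1.92), Srpk3 (1.66), B3gnt5 (1.48), Rep15 (1.44) and Krtcap2 (0.99). The values of Muc2, Agr2, Spink4, Srpk3 and Tff3 were negative when the 27 members rich in secretory products were left out. Only members were left out, not the non-dividing barcodes as high in that list, which fixes such a fall for genes of the list.

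Gzma (4.18), a lymphocyte protease gene, had 149 UMIs in 2.88% of the members of library 1 and 1 UMI in library 2. Jchain (-13.4), an antibody chain gene, had 0 UMIs in members and 1049 and 2 UMIs in non-dividing non-secretory barcodes, so that its fitted value is no measure of size. Neither was called without the 5 barcodes rich in lymphocyte, plasma and red cell markers.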

How the results depend on the processing

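The 3 comparisons were repeated under 14 alternative settings with a test, of which leaving out barcodes by mitochondrial share, secretory products or lymphocyte, plasma and red cell markers was chosen after seeing the data. All classes come from the same 2 libraries, and the replicate block, the library, is part of the test. Of 190 results on single genes, 177 were called. Of these 177, 171 kept their direction and 67 also their side of the threshold in every setting with a test. Members against non-dividing non-secretory barcodes gave 795 calls, 208 without the replicate block (109 higher, 99 lower), 329 with the DESeq2 Wald test and 408 thinned to equal depth. Members against dividing secretory barcodes gave 323 calls, 74 without the block and 170 with DESeq2, and with limits of 2000 and 500 CPM on the mitosis sum 153 genes were higher and 132 lower, beside a median shift of 0.19. The difference between gates gave 49 calls, 9 with DESeq2, 0 without the block (656 at unadjusted p under 0.05 in edgeR), 28 with 4 classes in the fit, 32 thinned and 31 without the 27 members rich in secretory products (1 more positive, 30 more negative). With limits of 2000 and 500 CPM it gave 24 more positive and 13 more negative. Other settings moved no count by over 1.5 times. The members' share of barcodes in library 1 was 5.74% at 2000 CPM, 11.7% at 500 CPM and 5.98% of all barcodes, and in library 2 3.20% at 2000 CPM.

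With a library left out no residual degrees of freedom remain, so those are values without a test and no counts were made. Against non-dividing barcodes, Cdca7 had -0.012 in library 1 and 0.20 in library 2, and -0.0060 under the mitochondrial limit. Lgr5 had -0.35 and 1.07, -0.10 thinned and -0.11 without members rich in secretory products. Muc2 had -0.46 and 0.47, 0.0044 with DESeq2 and 0.042 thinned. Car4 had 1.01 and -2.86 against dividing secretory barcodes, and 1.11 and -4.02 in the difference between gates. In that difference, without members rich in secretory products, Agr2 had -0.54, Muc2 -1.41, Spink4 -1.33, Srpk3 -0.54 and Tff3 -0.036. Gzma had -2.02 at 5000 UMIs or more, -0.94 with the immune limit on members and -0.76 without the 5 barcodes rich in lymphocyte, plasma and red cell markers. Leaving out members by the secretory list was one-sided, which fixes the fall of genes of that list. For the others the cause was not tested. In the simulated data most changes of 1 on the log2 scale went uncalled, for genes drawn at random from those with at least 20 UMIs.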
